A study of Homo sapiens with 18 samples.

Results

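The mitotic cyclins, the CDC25 phosphatases, the kinases that they act on or with and the APC/C activators were followed in 3 NK/T cell lymphoma lines treated with icaritin, a prenylated flavonoid. The 10 genes were chosen by name: the cyclins CCNA2, CCNB1 and CCNB2, their kinase CDK1, the phosphatases CDC25A, CDC25B and CDC25C, the inhibitory kinase PKMYT1, and the APC/C activators CDC20 and FZR1. They were found by their NCBI Gene IDs, and all 10 of them were listed in each of the 18 libraries and passed the filter on low counts, among 21662 gene IDs in the files, of which 14396 passed. The 6 groups were SNK-10, SNT-8 and SNT-16 cells given icaritin, and the same lines given DMSO, all sampled at 12 h with 3 libraries each. Every group carries the genotype label WT, the dose is not given in the sources used here, and nothing in the labels says whether the libraries of a group came from separate cultures, so p-values measure the spread between these libraries only, which may be technical. RNA was sequenced from total RNA with an MGIEasy library kit.

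Entry into mitosis is driven by CDK1 bound to a B-type or A-type cyclin. WEE1 and PKMYT1 hold the kinase inactive by phosphorylating it, and the CDC25 phosphatases remove those phosphates. The anaphase-promoting complex (APC/C), a ubiquitin ligase, then ends mitosis by marking the cyclins for destruction, directed by CDC20 until anaphase and by FZR1 (CDH1) afterwards and through G1. In cycling cells the mRNAs of the mitotic cyclins and of CDC20 build up in G2 and M phase under the control of NF-Y, the MuvB complex with MYBL2 (B-MYB), and FOXM1, and are held down in resting cells by the DREAM complex. These factors bind promoters through the CCAAT box and the cell cycle genes homology region (CHR).

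The promoter letters near the RefSeq start sites of these genes are shown as a description. The windows come from RefSeq on GRCh38.p14 and run 5′ to 3′ along the gene's strand, and 9 of the 10 genes, all but PKMYT1, matched an entry. Capitals mark CHR letters and their variants, CCAAT boxes on either strand and, in CDC25A, an E2F site. CDK1 also holds TTTGAA nearer a start, ending 8 bases before it, and an E2F site, TTTCGCGC, both outside the letters shown. CDK1, CDC25B, CDC25C and FZR1 have more than 1 RefSeq start. For CDK1, CDC25B and CDC25C 1 stretch each is shown, and FZR1 is not printed.
CCNB1, chr5:69167050-69167149, plus strand: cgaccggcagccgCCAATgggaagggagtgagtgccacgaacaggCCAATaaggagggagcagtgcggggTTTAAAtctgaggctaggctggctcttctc
CCNB2, chr15:59105046-59105145, plus strand: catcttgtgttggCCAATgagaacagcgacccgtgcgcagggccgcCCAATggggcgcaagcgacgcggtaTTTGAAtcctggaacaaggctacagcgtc
CCNA2, chr4:121823884-121823983, minus strand: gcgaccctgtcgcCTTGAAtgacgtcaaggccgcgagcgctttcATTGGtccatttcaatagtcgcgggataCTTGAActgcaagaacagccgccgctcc
CDC20, chr1:43358881-43358980, plus strand: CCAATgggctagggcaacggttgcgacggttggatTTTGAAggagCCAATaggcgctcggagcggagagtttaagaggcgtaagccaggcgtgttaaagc
CDC25A, chr3:48188418-48188517, minus strand: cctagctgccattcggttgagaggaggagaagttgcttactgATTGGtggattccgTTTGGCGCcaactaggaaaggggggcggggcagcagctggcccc
CDK1, chr10:60778397-60778426, plus strand: ctgATTGGctgcTTTGAAagtctacgggct
CDC25B, chr20:3796260-3796289, plus strand: ctgctgttatttTTCGAAtatataaggagg
CDC25C, chr5:138331817-138331846, minus strand: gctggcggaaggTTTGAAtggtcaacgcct

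The CHR-type letters nearest the start ended 25 bases before it in CCNB1, 24 in CCNB2 and 23 in CCNA2, and a CCAAT box lay upstream of them in each. CCNA2 held a second CTTGAA that ended 82 bases before the start, upstream of its CCAAT box. CCNB2 held a TTTAAA that ended 188 bases before the start, outside the letters shown. In CDC20 the nearest TTTGAA ended 60 bases before the start and stood upstream of the nearer CCAAT box, and another, on the opposite strand, ended 173 bases before it. CDK1, CDC25C and FZR1 also hold TTTGAA in a window, and none of these mRNAs passed as lower in any line. Both strands were searched in the 250 bases before and the 50 after each of 35116 RefSeq starts of 27305 genes. TTTGAA was present in 15.2% of those windows, at least 1 variant in 22.5% (the letters CTTGAA in 11.2%, the letters TTTAAA in 12.2% and the letters TTCGAA in 1.4%), a CCAAT box in 34.6%, and an E2F site (TTTGGCGC, TTTCGCGC, TTTCCCGC or TTTGCCGC) in 3.3%. The letters describe the windows and do not show binding.

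The libraries summed to between 9526431 and 10100453 expected counts. All 12 NK/T cell markers, among them CD3E, GZMB and PRF1, were at 1 FPKM (fragments scaled by transcript length and library depth) or more in all 6 groups. Of 6 B and plasma cell markers, MS4A1 and JCHAIN stayed at or near 0, CD79B reached 0.16 FPKM and CD79A 0.57 FPKM. PAX5 lay at 0.14 to 0.31 FPKM in SNK-10, 0.83 to 1.71 in SNT-8 and 1.16 to 1.68 in SNT-16 cells. The summed level of the 6, 42.4 to 125 FPKM in icaritin libraries and 86.1 to 204 FPKM in DMSO libraries, was nearly all MZB1. The 5 myeloid markers summed to 18.6 to 25.8 FPKM after icaritin and 17.8 to 23.7 FPKM in DMSO. Of these CD14 was near 0, while over all libraries LYZ lay at 6.18 to 10.31, CD68 at 3 to 10.26, ITGAM at 3 to 5.09 and CSF1R at 0.32 to 3.36 FPKM. The 6 fibroblast and stroma markers summed to 1.67 to 2.91 FPKM after icaritin and 0.56 to 2.1 FPKM in DMSO. Among them LUM was at or near 0 throughout, COL1A1 lay at 0.34 to 2.03 FPKM and COL1A2 reached 1.13 FPKM. The mitochondrial rRNA RNR2 took 1.65% to 5.12% of the counts in icaritin libraries and 0.83% to 1.55% in DMSO libraries. The part of these shifts in the results below was not tested. SNT-8 icaritin replicate 2 stood farthest from its group's other libraries, with a median absolute log2 difference of 0.146 from them, so results that rest on it are also given without it.

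In DMSO the 10 mRNAs spanned more than an order of magnitude on the FPKM scale, which corrects for transcript length. CDC20 was the most abundant at 96.1 to 154 FPKM over the 9 DMSO libraries. CCNA2 followed at 77.0 to 87.4 FPKM, CCNB1 at 67.2 to 86.9 FPKM and CCNB2 at 69.7 to 81.7 FPKM, ranges that overlap each other. CDK1 lay at 54.5 to 68.9 FPKM and CDC25B at 46.4 to 65.3 FPKM, also overlapping. PKMYT1 (29.6 to 36.4 FPKM), CDC25A (22.8 to 25.9 FPKM), FZR1 (11.0 to 13.9 FPKM) and CDC25C (5.15 to 6.9 FPKM) came below them, with no overlap between neighbours in that order. After icaritin CDK1 lay at 56.3 to 77.8 FPKM over the 9 icaritin libraries, overlapping CCNA2 (52.8 to 65.5 FPKM) and CDC20 (22.7 to 69.5 FPKM), while CCNB1 stood at 11.0 to 27.7 FPKM, in the range of CDC25A (18.5 to 24.5 FPKM) and FZR1 (12.2 to 14.5 FPKM).

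At the threshold used throughout, an adjusted p under 0.05 by edgeR's quasi-likelihood test with Benjamini-Hochberg adjustment over all 14396 genes, most of the 10 genes changed with icaritin and the largest changes were decreases in CCNB1 and CDC20. In SNK-10 cells 2 of the 10 rose, 6 fell and 2 did not pass, where 48.4% of all genes passed, 24.4% rising and 24% falling. In SNT-8 cells 1 rose, 6 fell and 3 did not pass, where 49.1% of all genes passed, 24% rising and 25% falling. In SNT-16 cells 2 rose, 5 fell and 3 did not pass, where 42% of all genes passed, 21.2% rising and 20.8% falling. Averaged over the lines 2 rose, 6 fell and 2 did not pass, against 61.7% of all genes passing, 31.7% rising and 30% falling. The median log2 fold change of the 10 genes was -0.23 in SNK-10, -0.25 in SNT-8 and -0.19 in SNT-16 cells, beside 0.01, 0.02 and 0.02 in that order over all genes tested in the same lines. The number of these genes that passed is read beside those shares, and the share of the 10 that fell was above the share of all genes that fell in each line. The 10 genes and the lists below were chosen with earlier results of these data known. The choice may have added to such an excess, so these shares describe the genes and were not tested. In bulk samples fewer cells in a cell cycle phase and less RNA per cell cannot be told apart.

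**Figure D1:**
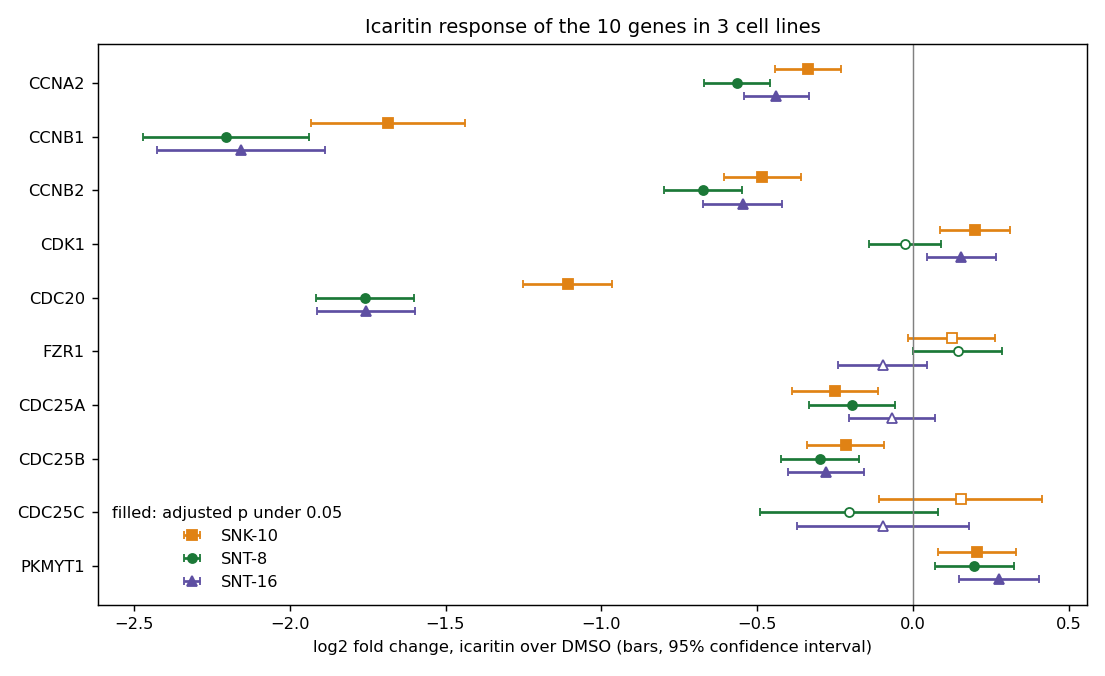
Log2 fold change of icaritin over DMSO (horizontal axis) of the 10 genes in SNK-10, SNT-8 and SNT-16 cells, with 95% confidence intervals from the edgeR fit; filled symbols passed the threshold. CCNB1 and CDC20 lie farthest to the left, between -2.20 and -1.11, and PKMYT1 lies to the right of 0 in each line.

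CCNB1, cyclin B1, the main activator of CDK1 at mitotic entry, fell most of the 10 genes. It measured 51.2, 61.9 and 64.6 CPM (counts scaled to library size) in SNK-10 icaritin libraries, against 187, 191 and 193 CPM in SNK-10 DMSO libraries. SNT-8 cells gave 40.8, 23.8 and 37.8 CPM with icaritin, against 167, 156 and 150 CPM with DMSO. SNT-16 cells gave 31.9, 33.1 and 33.3 CPM with icaritin, against 144, 148 and 147 CPM with DMSO. No icaritin library reached the lowest DMSO library of its line, and SNT-8 icaritin replicate 2 was the lowest of all 18. The log2 fold change was -1.68 in SNK-10 (SE 0.116, adjusted p = 1.3e-08), -2.20 in SNT-8 (SE 0.125, adjusted p = 1.31e-09) and -2.16 in SNT-16 cells (SE 0.126, adjusted p = 2.44e-09), which left 31.1%, 21.7% and 22.4% of the DMSO level in those lines. Without SNT-8 icaritin replicate 2 the SNT-8 value of CCNB1 was -2.00. A log2 fold change as low as that of CCNB1 was reached by 0.59% of all genes in SNK-10, 0.403% in SNT-8 and 0.396% in SNT-16 cells, and by 0.188% averaged over the lines.

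CDC20, the activator that directs the APC/C to cyclin B and securin at the metaphase to anaphase transition, fell next most. It measured 116, 121 and 116 CPM in SNK-10 icaritin libraries, against 246, 250 and 265 CPM in SNK-10 DMSO libraries. SNT-8 cells gave 53.5, 38.1 and 56.2 CPM with icaritin, against 167, 170 and 164 CPM with DMSO. SNT-16 cells gave 45.8, 50.3 and 49.1 CPM with icaritin, against 161, 167 and 163 CPM with DMSO. The groups did not overlap in any line, and the SNK-10 icaritin libraries stood above the other lines' icaritin libraries. The log2 fold change of CDC20 was -1.11 in SNK-10 (SE 0.0691, adjusted p = 2.96e-13), -1.76 in SNT-8 (SE 0.077, adjusted p = 1.79e-16) and -1.76 in SNT-16 cells (SE 0.0772, adjusted p = 3.52e-16). CCNB1 and CDC20 were the only members at least 2-fold lower with an adjusted p under 0.05 in each line, a class that held 2.47% of all genes in SNK-10, 2.29% in SNT-8 and 1.56% in SNT-16 cells, and 1.83% averaged over the lines.

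CCNB2, cyclin B2, and CCNA2, cyclin A2, which serves both S phase and mitotic entry, fell less. CCNB2 measured 85.0, 91.1 and 95.2 CPM with icaritin, against 122, 129 and 128 CPM with DMSO in SNK-10 cells, and 72.5, 82.3 and 78.1 CPM against 116, 112 and 112 CPM in SNT-16 cells. In SNT-8 cells it measured 75.9, 65.4 and 79.9 CPM with icaritin, against 123, 110 and 120 CPM with DMSO. The groups of CCNB2 did not overlap in any line, with log2 fold changes of -0.48 in SNK-10, -0.67 in SNT-8 and -0.55 in SNT-16 cells (edgeR adjusted p = 1.79e-08, 8.82e-12 and 1.8e-09 in that order). CCNA2 measured 181, 175 and 195 CPM with icaritin, against 238, 225 and 231 CPM with DMSO in SNK-10 cells, and 177, 174 and 181 CPM against 240, 238 and 243 CPM in SNT-16 cells. In SNT-8 cells it measured 185, 152 and 171 CPM with icaritin, against 256, 247 and 248 CPM with DMSO. The groups of CCNA2 did not overlap either, and its log2 fold changes were -0.34, -0.56 and -0.44 in SNK-10, SNT-8 and SNT-16 cells (edgeR adjusted p = 9.84e-07, 8.28e-12 and 4.78e-09 in that order). CCNA2 overlaps EXOSC9 in the annotation, and whether the counting used strand is not stated, so reads could have been split between them.

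CDK1, the kinase of all 3 cyclins, did not pass as lower in any line. It measured 134, 133 and 150 CPM in SNK-10 icaritin libraries, against 122, 124 and 117 CPM in SNK-10 DMSO libraries, and 135, 134 and 144 CPM against 128, 125 and 117 CPM in SNT-16 cells. In SNT-8 cells it measured 115, 106 and 110 CPM with icaritin, against 120, 105 and 113 CPM with DMSO, which overlap. CDK1 rose by 0.20 log2 in SNK-10 (SE 0.0557, adjusted p = 0.00289) and by 0.16 in SNT-16 cells (SE 0.055, adjusted p = 0.0201), and its log2 fold change in SNT-8 cells was -0.03 (95% interval -0.14 to 0.09, adjusted p = 0.747). The SNT-16 call of CDK1 was lost without SNT-16 DMSO replicate 3 or icaritin replicate 3 (edgeR adjusted p = 0.133 and 0.132).

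The ratio of CCNB1 to CCNB2 and to CDK1 in FPKM moved with treatment in every library. CCNB1 stood at 0.431, 0.486 and 0.485 times CCNB2 in SNK-10 icaritin libraries, against 1.1, 1.06 and 1.08 times in SNK-10 DMSO libraries. Over all 3 lines the ratio of CCNB1 to CCNB2 ran from 0.26 to 0.486 with icaritin and from 0.887 to 1.1 with DMSO, without overlap. The ratio of CCNB1 to CDK1 ran from 0.195 to 0.405 with icaritin and from 0.976 to 1.44 with DMSO. The ratio of CCNA2 to CDK1 moved less, at 0.831 to 1.06 with icaritin and 1.2 to 1.55 with DMSO. These ratios restate the levels above within a library and were not tested.

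**Figure D2:**
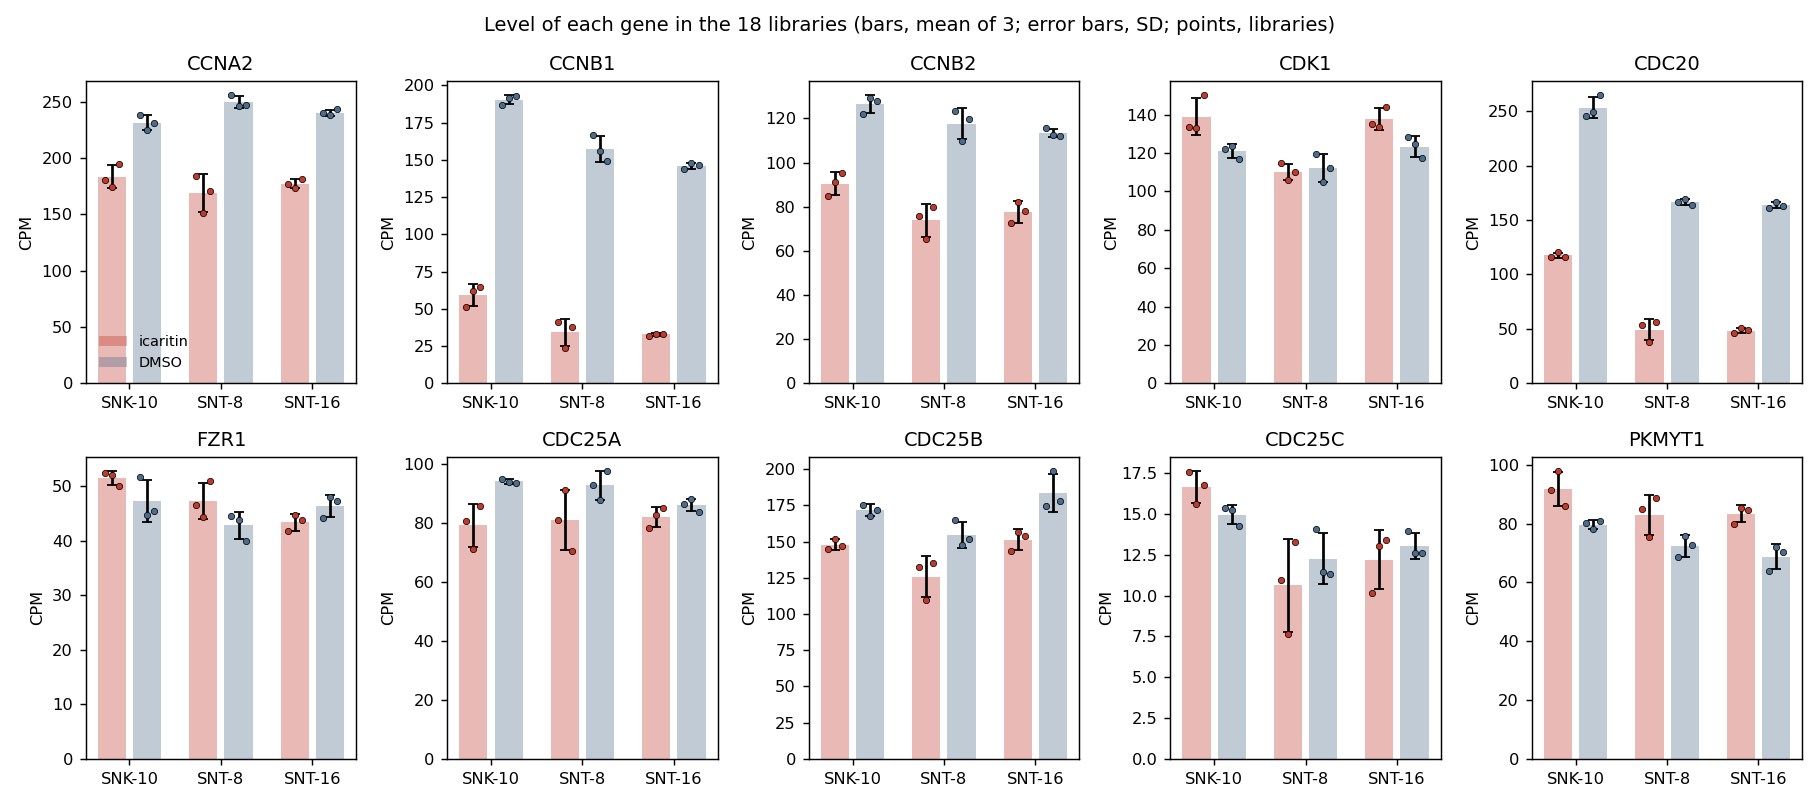
Level in CPM (vertical axis, from 0) of each of the 10 genes in icaritin (left bar, red) and DMSO (right bar, blue) libraries of SNK-10, SNT-8 and SNT-16 cells; bars are means of 3, error bars the SD and points the libraries. CCNB1 and CDC20 have icaritin libraries well below the DMSO libraries in each line, while FZR1 and CDC25C have overlapping or close groups.

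FZR1 (CDH1), the APC/C activator of late mitosis and G1, did not pass the test in any line. It measured 50.1 to 52.4 CPM with icaritin and 44.7 to 51.7 CPM with DMSO in SNK-10 cells. It measured 44.3 to 50.9 CPM against 40.0 to 44.6 CPM in SNT-8 cells, and 41.7 to 44.7 CPM against 44.1 to 48.0 CPM in SNT-16 cells. The log2 fold changes of FZR1 were 0.12 in SNK-10, 0.14 in SNT-8 and -0.10 in SNT-16 cells, with 95% intervals of -0.02 to 0.26, 0.0014 to 0.28 and -0.24 to 0.04 in that order. FZR1 passed as higher in SNT-8 cells without SNT-8 icaritin replicate 2 (edgeR adjusted p = 0.0343), under upper quartile scaling (adjusted p = 0.0383) and with limma on log2(FPKM + 1) (adjusted p = 0.0331), and in SNK-10 cells without SNK-10 DMSO replicate 1 (adjusted p = 0.0381). FZR1 overlaps MFSD12 in the annotation, so its reads carry the same limit as those of CCNA2. The FPKM ratio of CDC20 to FZR1 was 4.75 to 4.99 in SNK-10 icaritin libraries, against 10.2 to 12.5 in SNK-10 DMSO libraries, and 1.84 to 2.46 in the icaritin libraries of SNT-8 and SNT-16 cells, against 7.4 to 8.75 in their DMSO libraries.

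**Figure D3:**
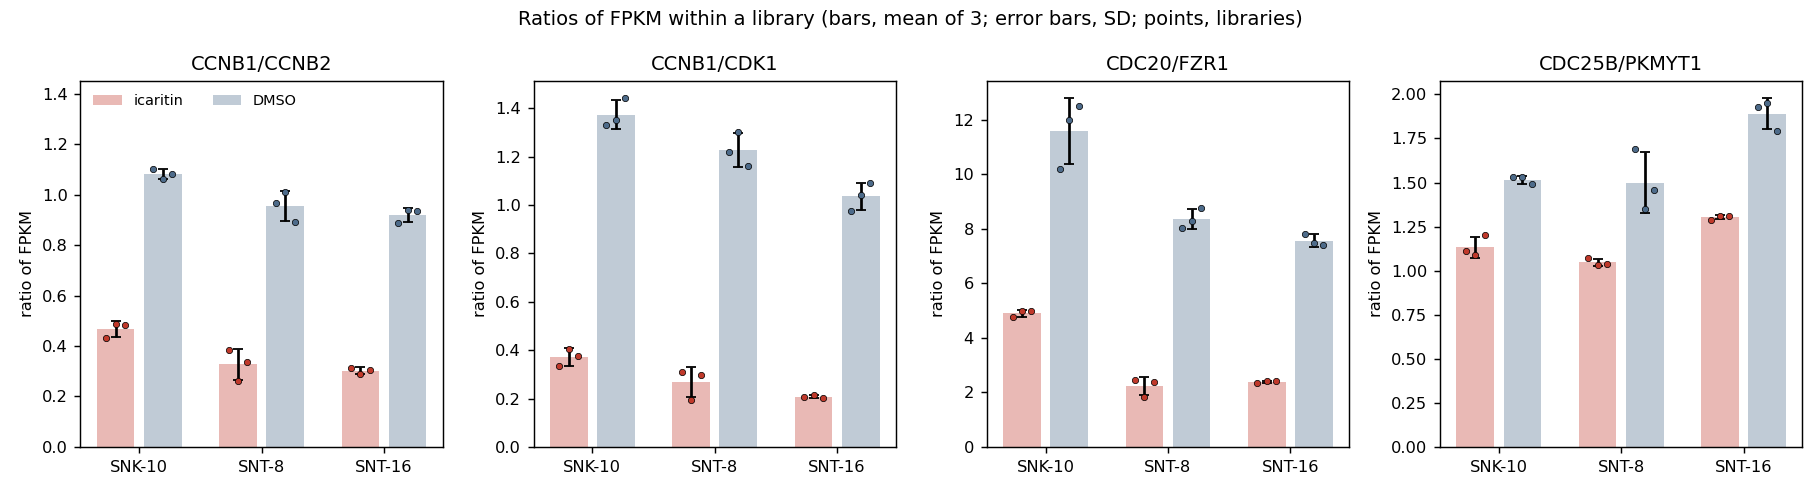
Ratio of FPKM within a library (vertical axis, no unit, from 0) for CCNB1 over CCNB2, CCNB1 over CDK1, CDC20 over FZR1 and CDC25B over PKMYT1 in icaritin (left bar) and DMSO (right bar) libraries of each line; bars are means of 3, error bars the SD and points the libraries. Icaritin libraries lie below the DMSO libraries of the same line in all 4 ratios; for CCNB1 over CCNB2 they reach at most 0.486, and no DMSO library is under 0.887.

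Of the 3 CDC25 phosphatases, which activate cyclin-CDK complexes, CDC25B fell in 3 lines, CDC25A in 2 and CDC25C in 0. CDC25B, which acts early at mitotic entry, measured 145, 152 and 147 CPM with icaritin, against 176, 167 and 172 CPM with DMSO in SNK-10 cells. It measured 133, 110 and 135 CPM against 165, 148 and 152 CPM in SNT-8 cells, and 143, 157 and 154 CPM against 174, 199 and 178 CPM in SNT-16 cells. The groups of CDC25B did not overlap in any line, and it fell by 0.22 log2 in SNK-10 (SE 0.0612, adjusted p = 0.00367), by 0.30 in SNT-8 (SE 0.0618, adjusted p = 0.000129) and by 0.28 in SNT-16 cells (SE 0.0601, adjusted p = 0.000244). CDC25A, which acts at the entry to both S phase and mitosis, measured 80.6, 71.2 and 85.5 CPM with icaritin, against 94.95, 93.7 and 93.4 CPM with DMSO in SNK-10 cells, and 78.3, 82.7 and 85.0 CPM against 86.2, 87.9 and 83.7 CPM in SNT-16 cells. In SNT-8 cells CDC25A measured 80.9, 91.1 and 70.6 CPM with icaritin, against 92.8, 87.7 and 97.4 CPM with DMSO. It fell by 0.25 log2 in SNK-10 (SE 0.0687, adjusted p = 0.00265) and by 0.20 in SNT-8 cells (SE 0.0677, adjusted p = 0.0154), where the groups overlap, and did not pass in SNT-16 cells (log2 fold change -0.07, 95% interval -0.21 to 0.07). The SNT-8 call of CDC25A was lost without SNT-8 icaritin replicate 3 (edgeR adjusted p = 0.186), without SNT-8 DMSO replicate 3 (adjusted p = 0.0897) and with limma on log2(FPKM + 1) (adjusted p = 0.0758).

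CDC25C, the phosphatase that is switched on as mitosis begins, was the least abundant of the 10 mRNAs. It measured 15.6 to 17.6 CPM with icaritin and 14.3 to 15.4 CPM with DMSO in SNK-10 cells. It measured 7.62 to 13.3 CPM against 11.3 to 14.1 CPM in SNT-8 cells, and 10.1 to 13.4 CPM against 12.6 to 13.97 CPM in SNT-16 cells. CDC25C did not pass in any line: its log2 fold change was 0.15 in SNK-10, -0.21 in SNT-8 and -0.10 in SNT-16 cells, with 95% intervals of -0.11 to 0.42, -0.49 to 0.08 and -0.37 to 0.18 in that order. In SNT-8 cells CDC25C was -0.40 without SNT-8 icaritin replicate 3, where it passed as lower (edgeR adjusted p = 0.0254), and -0.02 without SNT-8 icaritin replicate 2 (adjusted p = 0.945), the lowest CDC25C library. The overlap of CDC25C with FAM53C carries the same limit as above.

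PKMYT1, the membrane-bound kinase that phosphorylates CDK1 and opposes the CDC25 phosphatases, was the only member to rise in all 3 lines. It measured 91.4, 97.9 and 86.2 CPM in SNK-10 icaritin libraries, against 80.1, 78.1 and 80.9 CPM in SNK-10 DMSO libraries. SNT-8 cells gave 84.8, 75.5 and 88.7 CPM with icaritin, against 68.7, 76.0 and 72.6 CPM with DMSO, and SNT-16 cells gave 80.0, 85.5 and 84.5 CPM, against 63.8, 72.0 and 70.5 CPM. The groups overlap in SNT-8 cells only. PKMYT1 rose by 0.20 log2 in SNK-10 (SE 0.0621, adjusted p = 0.00584), by 0.20 in SNT-8 (SE 0.0625, adjusted p = 0.00816) and by 0.28 in SNT-16 cells (SE 0.0627, adjusted p = 0.000381). A rise called in each of the 3 lines was seen for 13% of all genes and a fall called in each for 14.3%, which for these genes were PKMYT1 and the 5 genes CCNA2, CCNB1, CCNB2, CDC20 and CDC25B. Calls of PKMYT1 were lost without SNK-10 icaritin replicate 2 (edgeR adjusted p = 0.058), SNT-8 DMSO replicate 1 (adjusted p = 0.0609) or SNT-8 icaritin replicate 3 (adjusted p = 0.0685), and in SNK-10 cells with limma on log2(FPKM + 1) (adjusted p = 0.0568), and PKMYT1 overlaps PAQR4. The FPKM ratio of CDC25B to PKMYT1 was 1.03 to 1.31 over the icaritin libraries and 1.35 to 1.95 over the DMSO libraries.

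Counted by overlap of the libraries alone, 9 of the 10 genes separated the groups in SNK-10 cells (6 lower, 3 higher), 5 in SNT-8 cells (all lower) and 7 in SNT-16 cells (5 lower, 2 higher). Over all genes tested the groups did not overlap for 55.2% in SNK-10, 54.1% in SNT-8 and 52.7% in SNT-16 cells.

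The size of the response was compared between lines by the treatment-by-line interaction, which 14.3% of all genes passed. CDC20 was the only member that passed (edgeR adjusted p = 3.32e-05), and its decrease was smaller in SNK-10 than in SNT-8 cells by 0.65 log2 (95% interval 0.44 to 0.86, adjusted p = 0.000101) and than in SNT-16 cells by 0.65 (95% interval 0.43 to 0.86, adjusted p = 8.82e-05). Without SNT-8 icaritin replicate 2 the CDC20 interaction had an adjusted p of 5.08e-10 and the difference from SNT-8 was 0.50. In the direct comparison of SNK-10 with SNT-8, which 10.8% of all genes passed (6.69% higher and 4.08% lower in SNK-10), CCNA2 passed too, with a smaller decrease in SNK-10 by 0.23 (95% interval 0.08 to 0.38, adjusted p = 0.0401), but not without SNT-8 icaritin replicate 2 (adjusted p = 0.127); 10 of 20 alternatives ended that call. CDC20 alone passed in the comparison of SNK-10 with SNT-16, which 12.5% of all genes passed (6.74% higher and 5.77% lower). CCNB1 did not pass the interaction (edgeR adjusted p = 0.0879), although its estimated decrease was smaller in SNK-10 than in SNT-8 by 0.52 (95% interval 0.15 to 0.89) and than in SNT-16 cells by 0.47 (95% interval 0.10 to 0.85). Without SNT-8 icaritin replicate 2, the lowest CCNB1 library, the CCNB1 interaction passed (adjusted p = 0.000155), while the CCNB1 difference between SNK-10 and SNT-8 shrank to 0.32 (adjusted p = 0.0154), and without SNT-8 icaritin replicate 1 or SNK-10 icaritin replicate 1 it passed as well (adjusted p = 0.0146 and 0.0381). Between SNT-8 and SNT-16 cells, where 0.438% of all genes passed (0.174% higher and 0.264% lower), 0 of the 10 did by edgeR, DESeq2 or limma, 2 had an unadjusted p under 0.05 in edgeR (CDK1 and FZR1), and the differences of their responses lay between -0.18 and 0.24.

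The lines also differed before treatment. In DMSO the level of CDC20 was higher in SNK-10 than in SNT-8 cells by 0.60 log2 and than in SNT-16 cells by 0.63 (edgeR adjusted p = 1.14e-08 and 4.58e-09). The DMSO level of CCNB1 was higher in SNK-10 than in SNT-8 by 0.28 (adjusted p = 0.0354, lost when either SNT-8 DMSO replicate 2 or 3 or any SNK-10 DMSO library was left out) and than in SNT-16 by 0.38 (adjusted p = 0.00573). CCNB2 and PKMYT1 were higher in SNK-10 than in SNT-16 by 0.16 and 0.21, CDC25B was higher in SNK-10 than in SNT-8 by 0.15, and CDC25B was lower in SNT-8 than in SNT-16 by 0.25. Each of these smaller calls was lost with some library left out, while the estimates kept their sign: CDC25B between SNK-10 and SNT-8 was lost without SNT-8 DMSO replicate 2 or 3 or SNK-10 DMSO replicate 1 or 3, CCNB2 without SNK-10 or SNT-16 DMSO replicate 2 or 3, PKMYT1 without SNT-16 DMSO replicate 1, and CDC25B between SNT-8 and SNT-16 without SNT-16 DMSO replicate 2. Upper quartile scaling also ended the calls of CCNB2 (edgeR adjusted p = 0.0785) and, between SNK-10 and SNT-8, of CDC25B (adjusted p = 0.0876) and CCNB1 (adjusted p = 0.0531). Both limma fits ended the same calls and that of PKMYT1. The CCNB1 call between SNK-10 and SNT-16 was lost with limma on log2(FPKM + 0.1) only (adjusted p = 0.0553). DESeq2 ended the CCNB1 call between SNK-10 and SNT-8 (adjusted p = 0.0627). In all, 3 of the 10 passed between SNK-10 and SNT-8 (57.6% of all genes, 29.9% higher and 27.8% lower), 4 between SNK-10 and SNT-16 (57.8%, 30.1% higher and 27.7% lower) and 1 between SNT-8 and SNT-16 (13.2%, 7.34% higher and 5.89% lower). These comparisons share the DMSO libraries with the response comparisons above. CDC20 in SNK-10 cells had both the highest DMSO level and the smallest fold decrease, and its icaritin level there, 116 to 121 CPM, stayed below the DMSO level of every line. In CPM the order was reversed. The mean went from 253 CPM with DMSO to 118 with icaritin in SNK-10, from 167 to 49.3 in SNT-8 and from 163 to 48.4 in SNT-16 cells.

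The counts for related gene lists are read beside the shares of all genes that passed, 48.4% in SNK-10, 49.1% in SNT-8 and 42% in SNT-16 cells, split about evenly between rises and falls. Of 10 remaining partners and inhibitors of CDK1, 8 were tested (CCNA1 and WEE2 were not, with at most 1 and 2 expected counts in a library), and 0 rose and 3 fell in SNK-10, 0 rose and 2 fell in SNT-8, and 1 rose and 1 fell in SNT-16 cells. The total that passed was a smaller share than over all genes in each line, while the falls alone were not a smaller share in SNK-10 cells. WEE1, the nuclear kinase that works beside PKMYT1, had 65.4 ± 4.8 CPM with icaritin and 68.1 ± 3.2 CPM with DMSO in SNK-10 cells, 70.2 ± 3.4 against 66.3 ± 1.6 CPM in SNT-8 cells and 72.3 ± 2.0 against 74.0 ± 2.4 CPM in SNT-16 cells (SD, n = 3 each), and did not pass in any line. CKS2, the small subunit that docks CDK1 on phosphorylated substrates, fell by 0.96 log2 averaged over the lines (edgeR adjusted p = 6.95e-14) and CCNH, the cyclin of the CDK-activating kinase, by 0.23 (adjusted p = 2.16e-05). CKS1B, the close relative of CKS2, averaged -0.05 and did not pass (adjusted p = 0.164). CCNB3, a further B-type cyclin, was near 0, at 0.97 to 1.52 CPM with icaritin and 0.84 to 1.16 CPM with DMSO in SNK-10 cells and at most 0.499 CPM in any library of the other lines; it did not pass on average (adjusted p = 0.0651), though it did without SNT-8 DMSO replicate 1, SNT-8 icaritin replicate 2 or SNT-16 DMSO replicate 3 (adjusted p = 0.0124, 0.0256 and 0.0286 in that order).

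The 11 genes of mitotic entry kinases, which amplify CDK1 activity, and of the Greatwall-PP2A branch, in which Greatwall restrains the phosphatase that opposes CDK1, gave 1 rise and 5 falls in SNK-10, 2 and 7 in SNT-8, and 3 and 6 in SNT-16 cells, with median log2 fold changes of -0.08, -0.13 and -0.16. AURKA, the kinase that activates PLK1, fell by 1.38 averaged over the lines and BORA, its cofactor, by 0.36 (edgeR adjusted p = 4.51e-09 and 2.95e-09). MASTL, the Greatwall kinase, rose by 0.40 and PPP2CA, a catalytic subunit of PP2A, fell by 0.45 (adjusted p = 1.28e-13 and 1.62e-16). The 14 tested genes of CDC25 checkpoint control (SFN was not tested, with at most 4 expected counts) were split, with 6 rises and 5 falls in SNK-10, 4 and 6 in SNT-8, and 4 and 4 in SNT-16 cells. Among mRNAs of the 14-3-3 family, which holds CDC25 in the cytoplasm, YWHAG fell by 0.49, YWHAH by 0.30 and YWHAZ by 0.20 averaged over the lines, and the kinase CSNK1A1 rose by 0.35 (edgeR adjusted p = 1.03e-18, 2.66e-12, 1.96e-08 and 1.02e-10 in that order). The 14-3-3 mRNA YWHAB averaged -0.03 and did not pass (adjusted p = 0.34).

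Of 14 APC/C core subunits 1 rose and 10 fell in SNK-10, 1 rose and 9 fell in SNT-8, and 1 rose and 10 fell in SNT-16 cells, with median log2 fold changes of -0.32, -0.26 and -0.26. Averaged over the lines CDC26 fell by 0.67, ANAPC1, the scaffold subunit, by 0.46, ANAPC5 by 0.38 and CDC27, which receives the activators, by 0.34 (edgeR adjusted p = 1.81e-13, 7.35e-17, 4.82e-14 and 3.37e-13 in that order), and ANAPC16 was the subunit that rose in each line. Of 9 ubiquitin-conjugating enzymes and inhibitors of the APC/C 1 rose and 5 fell in SNK-10, 0 rose and 7 fell in SNT-8, and 0 rose and 4 fell in SNT-16 cells. UBE2S, which extends ubiquitin chains on APC/C substrates, fell by 0.94 and UBE2C, which starts them, by 0.84. BUB1B, the checkpoint protein that inhibits CDC20, fell by 0.37 and MAD2L1BP, which helps to take that checkpoint apart, by 0.47 (edgeR adjusted p = 8.92e-27, 5.06e-08, 6.18e-12 and 7.63e-09 in the order UBE2S, UBE2C, BUB1B, MAD2L1BP).

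Among 24 other APC/C substrates 5 rose and 14 fell in SNK-10, 2 rose and 17 fell in SNT-8, and 4 rose and 16 fell in SNT-16 cells, with medians of -0.25, -0.42 and -0.38. KIF20A, a kinesin of the central spindle, fell by 1.68 averaged over the lines, CDCA3 by 1.00 and PTTG1 (securin), whose destruction releases separase, by 0.82, while TK1, the thymidine kinase of S phase, rose by 0.50 (edgeR adjusted p = 5.67e-29, 2.7e-21, 2.1e-22 and 1.78e-17 in that order). The 32 G2 and M phase markers gave 3 rises and 20 falls in SNK-10, 0 and 28 in SNT-8, and 0 and 27 in SNT-16 cells. In that list PSRC1 fell by 1.24, NUF2 by 0.65, BIRC5 by 0.55 and TACC3 by 0.52 averaged over the lines (edgeR adjusted p = 1.5e-16, 3.84e-17, 1.58e-17 and 2.6e-17 in that order). The 22 S phase markers gave 6 rises and 11 falls in SNK-10, 8 and 3 in SNT-8, and 12 and 2 in SNT-16 cells. CDT1, the licensing factor, rose by 0.95, TYMS by 0.48, RRM1 by 0.31 and MCM2 by 0.25 averaged over the lines, where 10 of the 22 rose and 10 fell (median -0.02) (edgeR adjusted p = 7.28e-27, 1.73e-19, 1.41e-13 and 8.12e-11 in that order). Of those that fell, CCNE1, the G1/S cyclin, fell by 0.45 and FEN1, the flap endonuclease, by 0.23 (adjusted p = 3.12e-09 and 4.49e-09).

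**Figure D4:**
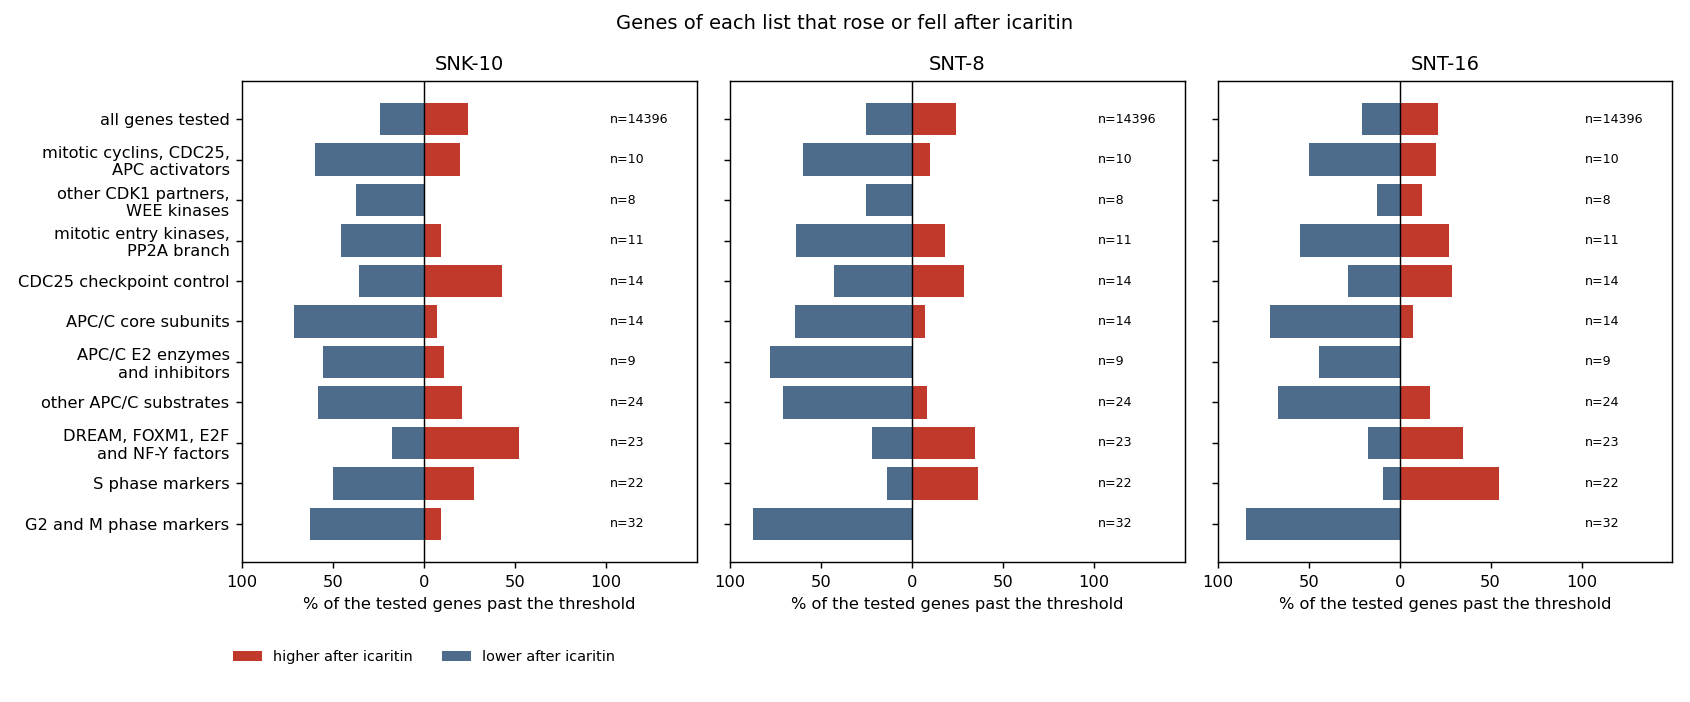
Share of the tested genes of each list (horizontal axis, percent) that rose (right of 0, red) or fell (left of 0, blue) after icaritin at an adjusted p under 0.05 in each line, with n the number tested and all 14396 genes in the top row. In the G2 and M phase list 20 to 28 of 32 genes fell in a line, while in the S phase list rises outnumber falls in SNT-8 and SNT-16 and falls outnumber rises in SNK-10 cells.

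Of 23 DREAM, MuvB, FOXM1, E2F and NF-Y genes 12 rose and 4 fell in SNK-10, 8 rose and 5 fell in SNT-8, and 8 rose and 4 fell in SNT-16 cells, with medians of 0.18, 0.06 and 0.08. MYBL2, the MuvB partner that activates G2 and M phase genes, measured 490, 470 and 489 CPM with icaritin, against 325, 291 and 315 CPM with DMSO in SNK-10 cells, and rose by 0.64 log2 there, by 0.51 in SNT-8 and by 0.56 in SNT-16 cells (edgeR adjusted p = 8e-15, 3.39e-12 and 4.27e-13). FOXM1 measured 330, 334 and 313 CPM with icaritin, against 264, 257 and 273 CPM with DMSO in SNK-10 cells, a rise of 0.30 (adjusted p = 1.63e-06). In SNT-8 cells FOXM1 had 275 ± 18.9 CPM with icaritin and 261 ± 13 CPM with DMSO, and in SNT-16 cells 264 ± 4.4 against 253 ± 4.0 CPM (SD, n = 3 each), and it passed in neither. Without SNT-8 icaritin replicate 2 FOXM1 passed as higher in SNT-8 cells too (log2 fold change 0.13, adjusted p = 0.0227). Averaged over the lines the repressor E2F7 rose by 0.95 and TFDP2, an E2F partner, by 0.61, and E2F5, an E2F of the DREAM family, fell by 1.23 (edgeR adjusted p = 4.63e-22, 1.49e-16 and 7.52e-17 in that order).

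Likeness of pattern was measured over the 18 libraries as the root mean square difference in log2 CPM, each gene centred on its mean within a line, among 9331 genes with a mean of at least 10 CPM. The genes nearest to CDC20 were LTB, PLK1 and KIF20A (differences of 0.115, 0.116 and 0.12), and those nearest to CCNB1 were CCL2, TANC2 and KIF20A (0.143, 0.193 and 0.206). CCNB2 lay nearest to PRMT3, RNF34 and TACC3, and CCNA2 nearest to YLPM1, CKAP2 and CBX6. CDC25B was nearest to PTPA, PRF1 and NELFCD, and PKMYT1 to USP20, CPOX and MKNK2. CDC25A was nearest to CCDC47, RPAIN and PARK7, and CDK1 to RAB2A, PRDX6 and DAPP1. For FZR1 the nearest were RNF157, GRK2 and KCTD5, and for CDC25C TRAM2, ZFP36 and IRF9. The points share treatment and library, so the measure largely reflects the size of the icaritin response in each line.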

How the data were processed

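RNA-seq of 18 libraries, 6 groups of 3, was used. The deposited files give, per gene, an expected count, an FPKM value and a transcript length made by the authors; Bowtie2 and HISAT are named in the submitters' processing notes, without versions, and the sources used here name neither a genome build nor a counting tool. The expected counts deposited by the authors were rounded to whole numbers; FPKM values were used as deposited by the authors for levels between genes and for ratios. Of 21662 gene IDs, 21556 were named by ID and 24 by transcript from RefSeq tables.

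Counts were scaled by TMM and tested with edgeR 4.0.16 (R 4.3.3; filterByExpr with a minimum count of 10 and a minimum total of 15; robust quasi-likelihood F tests; 6 group means, 12 residual degrees of freedom), adjusted by Benjamini-Hochberg over 14396 genes at 0.05. SE is the log2 fold change over the square root of F. The test was checked on simulated data. Alternatives were RLE and upper quartile scaling, TMM without RNR1 and RNR2, no filter, DESeq2 1.42.0, limma 3.58.1 on log2(FPKM + 1) and log2(FPKM + 0.1), a replicate block, each library left out and each line alone. Replicates differed by a chi-square of 1.37 to 8.18 per gene, more than counting noise. Depth was even, so precision rests on the spread between libraries. Members and lists were chosen with earlier results of these data known. Besides the 10 genes, WEE1, FOXM1 and MYBL2, the text names up to 4 genes a list with the smallest p averaged over the lines, and the 3 genes most like each member; ANAPC16, YWHAB, CCNE1 and FEN1 were added after their values were seen. A B cell marker was left out of its list and is not reported here.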

Additional observations from a re-analysis of the deposited data

Results flagged for a closer look

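The icaritin response of CDC20 differed between lines by the test of the difference itself (edgeR adjusted p = 3.32e-05 over the 3 lines, 0.000101 for SNK-10 against SNT-8 and 8.82e-05 for SNK-10 against SNT-16). The CDC20 decrease was 1.11 log2 in SNK-10, 1.76 in SNT-8 and 1.76 in SNT-16 cells, with every icaritin library below every DMSO library of its line. The CCNA2 response of SNK-10 differed from that of SNT-8 (adjusted p = 0.0401, a difference of 0.23), a call lost when SNT-8 icaritin replicate 2 was left out (adjusted p = 0.127). The FOXM1 response differed between lines (adjusted p = 0.0148 over the 3 lines, 0.0227 for SNK-10 against SNT-8 and 0.0146 for SNK-10 against SNT-16): FOXM1 rose by 0.30 in SNK-10 cells, and its log2 fold change was 0.07 in SNT-8 and 0.06 in SNT-16 cells. The FOXM1 difference over the 3 lines was lost with limma on log2(FPKM + 1) (adjusted p = 0.192) and without SNK-10 DMSO replicate 2 (adjusted p = 0.0726), and that between SNK-10 and SNT-16 without the same library (adjusted p = 0.0548) and with limma (0.124 and 0.133 with 1 and 0.1 added). The FOXM1 difference between SNK-10 and SNT-8 was lost without SNT-8 DMSO replicate 1 or 2, SNT-8 icaritin replicate 2, SNK-10 DMSO replicate 2 or SNK-10 icaritin replicate 2 (adjusted p = 0.0577, 0.0782, 0.062, 0.0824 and 0.0529 in that order), under upper quartile scaling (0.0607) and with limma (0.228 and 0.241). Without SNT-8 icaritin replicate 2 FOXM1 passed as higher in SNT-8 cells (0.13, adjusted p = 0.0227).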

How the results depend on the processing

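CCNB1, CDC20, CCNB2, CCNA2 and CDC25B kept their call and direction in each line under all alternatives run, and the CDC20 interaction kept its call. The members rising in SNT-8 cells numbered 1, and 2 under upper quartile scaling and both limma fits, and 0 to 2 with a library left out; in SNK-10 cells 2, 1 under both limma fits and 1 to 3 with a library left out; in SNT-16 cells 2, and 1 to 2 with a library left out. Members past the interaction threshold numbered 1, 3 with no filter and 1 to 3 with a library left out. For SNK-10 minus SNT-8 responses they numbered 2, then 1 under upper quartile scaling and both limma fits, 4 with no filter and 1 to 4 with a library left out; for SNK-10 minus SNT-16, 1, then 2 with no filter and 1 to 2 with a library left out. With no filter the CCNB1 interaction passed (adjusted p = 2.04e-08); the cause was not tested. All genes past the threshold for SNT-8 minus SNT-16 responses numbered 63, then 279 with no filter, 8 and 9 under limma with 1 and 0.1 added, and 17 to 178 with a library left out. Members whose DMSO level differed numbered 3 for SNK-10 minus SNT-8 (1 under both limma fits, 1 to 5 with a library left out), 4 for SNK-10 minus SNT-16 (2 and 1 under limma, 3 to 4 with a library left out) and 1 for SNT-8 minus SNT-16 (2 under both limma fits, 0 to 1 with a library left out). Signs turned only for values near 0: CDK1 in SNT-8 cells was 0.00418 under upper quartile scaling, 0.0268 and 0.0273 under limma. WEE1 on average was 0.00465, 0.00741 and 0.00766 under the same fits. With a library left out, CDK1 in SNT-8 ran from -0.0728 to 0.0213, CDC25C in SNT-16 from -0.173 to 0.0217, CDC25C on average from -0.114 to 0.0138 and WEE1 on average from -0.0242 to 0.00978.

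Same-numbered libraries did not deviate together (r from -0.0584 to 0.0552). The labels do not say whether the numbers pair libraries, and these values cannot tell whether same-numbered libraries shared a culture or day. With the replicate block, 6847, 6788 and 5819 genes passed in SNT-8, SNK-10 and SNT-16 cells, the members' counts stayed the same, and the FOXM1 difference of SNK-10 minus SNT-8 was lost (edgeR adjusted p = 0.0537). The block could not be fitted to the DMSO comparisons between lines. Another scaling moved the median of all genes by under 0.1.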
